A study of Rattus norvegicus with 54 samples.

Results

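The genes described here are the conjugating enzymes of the UGT, GST and SULT families on a rat microarray: every gene whose probe carries a single symbol beginning Ugt1, Ugt2, Ugt3, Ugt8, Gsta, Gstk, Gstm, Gsto, Gstp, Gstt, Gstz, Mgst or Sult. Within these families, membership follows from the gene name and not from a measured value. There were 39 of them among 18773 genes with a single symbol: 7 UGT genes (5 of Ugt2, with Ugt3a2 and Ugt8), 23 GST genes (8 of them Gstm) and 9 SULT genes. Another 7 probes of these families carry several symbols joined together and were left out, among them those of the Ugt1a, Sult1e1 and Sult2a genes. Each gene was read from its brightest probe, and 36 of the 39 have a single probe.

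Male Sprague-Dawley rats were fed HFrD supplemented with nordihydroguaiaretic acid (HFrD-NDGA), the high-fructose diet alone (HFrD) or chow, and RNA of liver, of gastrocnemius muscle and of white adipose tissue from the epididymal depot was hybridized to single-colour arrays. The sources differ on the dose (2.5 or 2.4 g of NDGA, with the unit of the first given both per kg and per g of diet) and on the length of feeding (16 or 8 weeks). Each diet in each tissue also has a group whose label adds the letters INS (HFrD-NDGA-INS, HFrD-INS and chow-INS), and what INS stands for is not given in the sources used here. This makes 18 groups of 3 arrays, 54 arrays in all. The rats' ages are not given in the sources used here, and the only agents named are the diets and NDGA. RNA of the rats of a group was pooled before hybridization, so the 3 arrays are repeats of 1 pool: the p-values measure how far arrays of 1 pool scatter and say nothing of the scatter among rats. With 3 arrays a group, precision is limited.

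Conjugating enzymes attach a water-soluble group to foreign compounds, hormones, bile acids and reactive lipid products so that transporters can pass them into bile or urine. Most UGT enzymes, which lie in the endoplasmic reticulum, transfer glucuronic acid from UDP-glucuronic acid, though not all members of the family do. The GST enzymes, most of them cytosolic, and the membrane-bound Mgst enzymes add glutathione or use it to reduce peroxides. The SULT enzymes of the cytosol add sulfate from the donor PAPS. Liver is the organ in which these families are best known. Many of their genes are known targets of sensors of foreign compounds, such as the receptors Nr1i2 (PXR), Nr1i3 (CAR) and Ahr and the oxidative stress factor Nfe2l2 (NRF2). NDGA is itself a plant polyphenol of the catechol type.

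The arrays detected 52.4% to 61.8% of probes in liver, 49.3% to 55.8% in muscle and 53.6% to 63.2% in adipose tissue, and the median intensity of an array ran from 71 to 193. Values are log2 intensities after quantile normalization of the 18 arrays of a tissue, with values under 16 raised to 16, so 4.0 marks the floor. A change is the difference in log2, given with its standard error (SE) and the adjusted p of limma over all 19802 entries of the array, and a gene counts as called at an adjusted p under 0.05. Levels of different probes are not compared. A gene is above background in a group when its probe was detected on at least 1 of the 3 arrays, and a gene without such a group has no fold. In tissue RNA, fewer cells of a type and less RNA per cell cannot be told apart. Marker lists are given as the mean of their genes on each array, on a scale of all 54 arrays normalized together. The labelled tissues matched their markers: hepatocyte markers averaged 15.11 to 15.38 per array in liver, skeletal muscle fibre markers 15.64 to 15.90 in muscle and adipocyte markers 15.42 to 15.64 in adipose tissue.

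Liver held the widest set of these enzymes. There 29 of the 39 genes were detected on all 18 arrays and 4 on none, against 21 and 10 genes in adipose tissue and 18 and 16 in muscle. All of the 18 muscle genes were detected on all 54 arrays, among them Gstp1, the pi-class enzyme, Gstz1, which also isomerizes maleylacetoacetate in tyrosine breakdown, and Mgst3. Ugt2a1 and Ugt2b7 were detected on no array, and Ugt8, the enzyme of galactosylceramide synthesis, on 1. Detection on all 3 arrays of at least 1 group was reached by 35 genes. Ugt2a3, Gsta5, Gstm3 and Sult1c2 were detected on all 18 liver arrays and on none of the other tissues, while Gstt4 was detected on 16 of the 18 muscle arrays and nowhere else, and Sult1d1 on 7 adipose arrays and nowhere else.

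Between tissues of chow-fed rats, 27 genes were higher and 4 lower in liver than in muscle, where 31.4% and 36% of all entries were, and 30 were higher and 5 lower in liver than in adipose tissue, where 30.7% and 35.9% of all entries were. In adipose tissue 17 were higher and 10 lower than in muscle, beside 31.5% and 31.6% of all entries, or 18 and 6 without scaling between arrays. The liver differences were wide: Sult1c3 was at least 196-fold higher in liver than in muscle, Sult1b1, which sulfates thyroid hormones, at least 146-fold (limma, adjusted p = 1.04e-09 and 7.09e-09), both lower bounds being set by the dimmest detected probes of the muscle arrays. Gsta4, which conjugates the lipid peroxidation product hydroxynonenal, was 41.7-fold higher in liver than in muscle and 6.93-fold higher in liver than in adipose tissue. Gstp1 and Gstm5 ran the other way. Gstp1 was 3.65-fold lower in liver than in muscle and 10.2-fold lower in liver than in adipose tissue, and Gstm5 was 7.35-fold and 2.63-fold lower. The probe of Mgst1, the membrane-bound enzyme, was saturated on 26 arrays, so its folds may be too small.

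In liver Ugt2a3 and Ugt2b1 were lower on HFrD than on chow, and both were lower again with NDGA, as was Ugt2b. Ugt2a3 stood at 8.10, 8.23 and 7.82 in HFrD-NDGA livers, at 10.67, 10.57 and 10.78 in HFrD livers and at 11.60, 11.69 and 11.66 in chow livers. The 3 diets formed separate levels with no overlap between arrays. Ugt2a3 was 6.17-fold lower with NDGA than on HFrD (log2 change −2.63, SE 0.11, limma adjusted p = 1.7e-05) and 1.97-fold lower on HFrD than on chow (−0.97, SE 0.11, adjusted p = 0.00209), a call that was lost when arrays were centred on their medians. Against chow, Ugt2a3 was 12.1-fold lower in HFrD-NDGA livers.

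Ugt2b1, a UGT that conjugates steroids and bile acids among other compounds, read 10.87, 10.90 and 10.54 in HFrD-NDGA livers, 12.05, 12.09 and 12.24 in HFrD livers and 13.67, 13.72 and 13.57 in chow livers. It was 2.56-fold lower with NDGA than on HFrD (−1.36, SE 0.11, adjusted p = 0.000393) and 2.87-fold lower on HFrD than on chow (−1.52, SE 0.11, adjusted p = 0.000358), again with no array of one diet among those of another. Ugt2b read 6.23, 6.29 and 5.67 in HFrD-NDGA livers, 9.17, 9.32 and 9.13 in HFrD livers and 9.98, 9.60 and 9.66 in chow livers. With NDGA its probe was not detected on any array, so it was at least 6.88-fold lower than on HFrD (limma adjusted p = 0.000105) and at least 9.99-fold lower than on chow (adjusted p = 4.24e-05). On HFrD against chow the change of Ugt2b (−0.54, SE 0.19) did not pass the test (adjusted p = 0.101), although the arrays did not overlap.

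These 3 genes lie on the same chromosome and are transcribed from the same strand, and the 250 bases before their starts are shown because they are the genes that fell together in HFrD-NDGA livers. The sequences are from RefSeq, assembly GRCr8, given 5′ to 3′ on the strand of the gene: chr14:20851720-20851969 on the plus strand for Ugt2a3, chr14:20985199-20985448 plus for Ugt2b and chr14:21378632-21378881 plus for Ugt2b1. Capitals mark GTTAAT, core letters of sites bound by the hepatocyte factor HNF1, searched on both strands.
Ugt2a3: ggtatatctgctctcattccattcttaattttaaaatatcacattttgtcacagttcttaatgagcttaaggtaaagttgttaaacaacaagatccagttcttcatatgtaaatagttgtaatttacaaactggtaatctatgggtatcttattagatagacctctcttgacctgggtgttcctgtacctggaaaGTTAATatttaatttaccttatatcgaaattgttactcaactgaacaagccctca
Ugt2b: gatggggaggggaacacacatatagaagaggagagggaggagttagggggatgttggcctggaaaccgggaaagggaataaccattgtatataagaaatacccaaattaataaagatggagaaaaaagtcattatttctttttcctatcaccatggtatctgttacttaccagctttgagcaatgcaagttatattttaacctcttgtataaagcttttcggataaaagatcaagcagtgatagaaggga
Ugt2b1: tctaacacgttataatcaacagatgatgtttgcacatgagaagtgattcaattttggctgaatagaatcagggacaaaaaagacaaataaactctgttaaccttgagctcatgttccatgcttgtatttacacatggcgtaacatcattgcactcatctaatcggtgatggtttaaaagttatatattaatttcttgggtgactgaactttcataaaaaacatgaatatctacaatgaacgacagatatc
GTTAAT stands 55 to 50 bases before the start of Ugt2a3 and not in the window of the others. It occurred in 7.45% of 33469 rat promoters of 300 bases (250 before and 50 after the start) and in 3 of the 34 promoters found for 32 of the member genes (8.82%). The member genes with a match were Ugt2a3 and Gsta3. In liver Gsta3 was called higher on HFrD than on chow, unlike Ugt2a3, and lower with NDGA than on HFrD, as was Ugt2a3. The motif was chosen after the Ugt2 values had been seen. A match here is a description of letters and not of a bound site.

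Among the GST genes, Gsta5 and Gstt3 had the largest changes in liver and were lower on HFrD than on chow and higher with NDGA than on HFrD. Gsta5, an alpha-class enzyme known in rat for conjugating the epoxide of aflatoxin, stood at 11.84, 11.61 and 11.57 in HFrD-NDGA livers, at 9.01, 9.0 and 9.15 in HFrD livers and at 10.34, 10.51 and 10.10 in chow livers. The HFrD arrays were the lowest and the HFrD-NDGA arrays the highest, without overlap. It was 6.15-fold higher with NDGA than on HFrD (2.62, SE 0.12, adjusted p = 3.3e-05), 2.4-fold lower on HFrD than on chow (−1.26, SE 0.12, adjusted p = 0.00118, lost with centring) and 2.56-fold higher with NDGA than on chow (1.36, SE 0.12, adjusted p = 0.000439). Gstt3, a theta-class enzyme, read 14.48, 14.46 and 14.38 in HFrD-NDGA livers, 12.96, 13 and 12.89 in HFrD livers and 14.48, 14.43 and 14.38 in chow livers. The HFrD arrays lay below all others, and the HFrD-NDGA and chow arrays overlapped (0.01, SE 0.04, adjusted p = 1). Gstt3 was 2.8-fold higher with NDGA than on HFrD (1.49, SE 0.04, adjusted p = 5.13e-06) and 2.79-fold lower on HFrD than on chow (−1.48, SE 0.04, adjusted p = 9.36e-06).

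The mu-class genes did not move as a block with NDGA. Gstm5, Gstm7 and Gstm4 rose and Gstm3 fell, with changes of 0.69 (SE 0.11), 0.62 (SE 0.05), 0.49 (SE 0.05) and −0.77 (SE 0.10) and adjusted p of 0.00708, 0.000488, 0.00113 and 0.00397 against HFrD. Gstm7 read 13.08, 13.04 and 13.15 in HFrD-NDGA livers, 12.50, 12.49 and 12.42 in HFrD livers and 12.56, 12.54 and 12.70 in chow livers, so that the NDGA arrays stood above the rest. Gstm3 read 8.51, 8.18 and 8.16 in HFrD-NDGA livers against 9.09, 9.03 and 9.04 in HFrD livers and 9.04, 9.22 and 9.0 in chow livers, with no overlap of NDGA arrays and the rest. Gstm1 and Gstm2, whose products are abundant mu-class enzymes of rat liver, were not called in either comparison. The probe of Gstm1 read 15.29 to 15.90 on these arrays, near the top of the intensity range, where changes may read too small. Mgst3, a membrane-bound enzyme with peroxidase activity, and Gsto2, an omega-class enzyme that reduces dehydroascorbate, rose by 0.68 (SE 0.09) and 0.61 (SE 0.09) on the log2 scale with NDGA (adjusted p = 0.00302 and 0.00621, that of Gsto2 lost without scaling).

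The promoters of Gstm5 and Gstm7 are shown because both genes were called higher with NDGA and both windows hold the antioxidant response element core TGACNNNGC, the letters bound by NFE2L2 dimers, which is in capitals. They are RefSeq GRCr8 chr2:198219519-198219768 on the plus strand and chr2:198260320-198260569 on the minus strand, given 5′ to 3′ on the strand of the gene.
Gstm5: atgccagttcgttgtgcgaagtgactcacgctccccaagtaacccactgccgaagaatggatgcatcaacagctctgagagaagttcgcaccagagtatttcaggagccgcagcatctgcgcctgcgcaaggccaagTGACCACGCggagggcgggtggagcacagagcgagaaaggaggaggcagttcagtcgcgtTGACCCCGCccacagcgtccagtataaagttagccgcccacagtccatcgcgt
Gstm7: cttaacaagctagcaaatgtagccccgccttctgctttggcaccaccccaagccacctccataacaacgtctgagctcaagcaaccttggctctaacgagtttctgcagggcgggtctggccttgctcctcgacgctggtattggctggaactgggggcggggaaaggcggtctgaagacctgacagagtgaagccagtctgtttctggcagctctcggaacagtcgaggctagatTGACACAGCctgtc
The nearer of the matches stands 53 to 45 bases before the start of Gstm5, and the match of Gstm7 14 to 6 bases before that of Gstm7. It occurred on either strand in 12.1% of 33469 promoters and in 5 of 34 member promoters (14.7%), those of Gstm5, Gstm7, Gstp1, Gsta3 and Gstz1. The same letters did not go with one direction of change with NDGA: Gsta3 fell (−0.31, SE 0.06, adjusted p = 0.0201, lost on leaving out any single HFrD array or with centring), and Gstp1 (−0.19, SE 0.19, adjusted p = 0.611) and Gstz1 (0.00, SE 0.03, adjusted p = 1) did not pass the test. The AHR core GCGTG occurred in 29.7% of promoters and 8 of the 34 (23.5%), with a match in Gstm5 that overlaps its first TGACNNNGC, and the repeat bound by PPAR and RXR in 0.0538% of promoters and none of the 34.

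The sulfotransferases split too. Sult2b1, which sulfates cholesterol and other sterols, read 9.15, 9.14 and 9.17 in HFrD-NDGA livers, 9.67, 10.05 and 10.02 in HFrD livers and 8.20, 7.86 and 8.17 in chow livers. It was 3.58-fold higher on HFrD than on chow (1.84, SE 0.13, adjusted p = 0.000318) and 1.7-fold lower with NDGA than on HFrD (−0.76, SE 0.13, adjusted p = 0.00936, lost with centring), which left the NDGA arrays between the others. Sult4a1, an orphan member known from brain, stood at 8.09, 8.53 and 8.90 in HFrD-NDGA livers, at 10.06, 10.02 and 10.02 in HFrD livers and at 9.07, 9.02 and 9.38 in chow livers. The HFrD arrays were the highest. The change with NDGA against HFrD was −1.53 (SE 0.20, adjusted p = 0.00369), while the call on HFrD against chow (0.88, SE 0.20, adjusted p = 0.0313) was lost without scaling and on leaving out chow array 1 or 2 or any HFrD array, with adjusted p up to 0.0941. Sult1c2 read 8.17, 8.16 and 8.13 in HFrD-NDGA livers, 7.25, 7.13 and 7.16 in HFrD livers and 7.94, 7.84 and 7.99 in chow livers. It was lowest on HFrD, with changes of 0.97 with NDGA against HFrD (SE 0.04, adjusted p = 3.33e-05) and −0.74 on HFrD against chow (SE 0.04, adjusted p = 0.000174). Sult1c3 and Sult1a1, the phenol sulfotransferase, were called in neither.

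**Figure D1:**
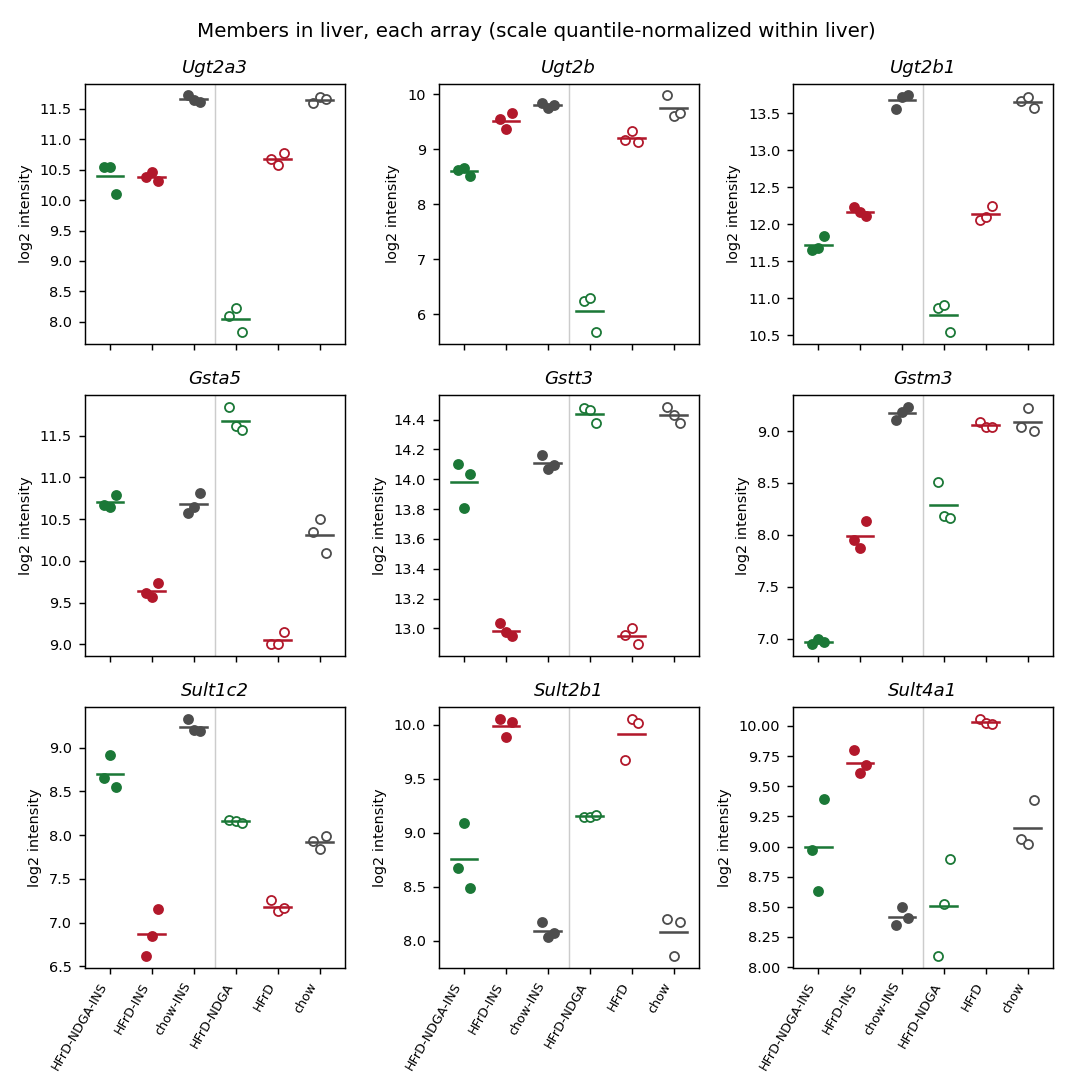
Log2 intensity of 9 member genes on each liver array (points; bars are group means of 3 arrays), for HFrD-NDGA-INS, HFrD-INS and chow-INS (filled) and HFrD-NDGA, HFrD and chow (open). Ugt2a3, Ugt2b and Ugt2b1 were lowest in HFrD-NDGA livers without INS, and Gstt3 was lower in both HFrD groups than in all others.

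Over the families, 3 members were called higher and 14 were called lower on HFrD against chow in liver, where 9.93% of all entries were higher and 6.03% lower. The median change was −0.27 over the 39 members and 0.00 over all entries. With arrays centred on their medians the counts were 3 and 5. The lower members were Ugt2b1, Ugt2a3, Gstt3, Gsta5, Gsta4, Gstm4, Gstm5, Gsto1, Gsto2, Mgst3, Sult1c2 and Sult1b1, with Gstm6 and Ugt2b7 at levels that give no fold. Gsta3, Sult4a1 and Sult2b1 were the higher ones. Gsta3, Gstt3, Sult1c2, Sult2b1 and Ugt2b1 kept their calls in every alternative tried, 5 of the 16 called members detected in either group. The calls of Gstm5, Gsto2, Mgst3 and Sult1b1 were lost on leaving out HFrD array 1 or 2, those of Gsto2 and Mgst3 also without HFrD array 3, and those of Gstm5, Gsto2 and Mgst3 also without chow array 3, with adjusted p up to 0.081 for Gstm5, 0.13 for Gsto2, 0.143 for Mgst3 and 0.0514 for Sult1b1. That of Gstm6 was lost without HFrD array 1 or 3 or chow array 1, chow array 1 also ended those of Gstm5 and Mgst3, and chow array 2 that of Gsto2. With centring the changes of Gsto1 (−0.40), Mgst3 (−0.33) and Sult1b1 (−0.39) were 0.04, 0.11 and 0.06.

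With NDGA against HFrD, 10 members were higher and 7 lower in liver, where 8.26% of all entries were higher and 6.97% lower, and the medians were 0.00 over members and over all entries. The lower ones were Ugt2a3, Ugt2b, Ugt2b1, Gstm3, Gsta3, Sult2b1 and Sult4a1, and the higher ones, apart from Ugt2b7 at background and Sult1c2, were the GST genes Gsta5, Gstt3, Gstm5, Mgst3, Gstm7, Gsto2, Gstm4 and Gsta4, the last with a call that was lost without any HFrD array or without NDGA array 2 or 3. Of the 16 called members detected in either group, 12 kept their call in every alternative. Against chow, HFrD-NDGA livers had 7 members higher and 8 lower, where 17.6% and 13% of all entries were. With centring these counts were 11 and 4, and Gsta4 and Gsto1 changed sign. Sult1c2 (0.23) changed sign without scaling. Ugt2a3, Ugt2b and Ugt2b1 were again lower, and Gsta5, Sult2b1, Gstm7 (0.49, SE 0.05, adjusted p = 0.00094) and Mgst2, a membrane enzyme that also makes leukotriene C4 (0.33, SE 0.07, adjusted p = 0.0124), were the higher ones in every alternative. These comparisons share the HFrD or chow arrays with those above. Erythrocyte markers averaged 7.27 to 7.82 in HFrD-NDGA, 9.85 to 9.93 in HFrD and 7.51 to 7.84 in chow livers, with 2 of 2 called higher on HFrD and lower with NDGA, and their part in the changes of the members was not tested. Hepatocyte markers were called in 1 of 10 cases on HFrD against chow and in 4 of 10 with NDGA. Several of these lay at the top of the intensity range, where changes may read too small. Alb averaged 15.98, 16 and 15.98 in HFrD-NDGA, HFrD and chow livers. Others moved, and not all in one direction. Apoa1 averaged 14.8, 15.91 and 15.66 and Cps1 14.05, 14.55 and 14.47 in the same order, while Cyp2e1 averaged 15.76, 15.42 and 15.61. The part of the hepatocyte markers in the changes of the members was not tested.

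The INS groups were compared among themselves in the same way. On HFrD-INS against chow-INS, 3 members were higher and 16 lower, where 4.3% of all entries were higher and 5.06% lower, with a median of −0.27 over members and 0.00 over all entries. Lower in every alternative were Sult1c2, Ugt2b1, Ugt2a3, Gstm3, Gstt3 and Gsta5, and higher in every alternative Sult2b1 and Sult4a1. Ugt2b1 read 12.23, 12.17 and 12.10 in HFrD-INS livers against 13.56, 13.72 and 13.74 in chow-INS livers (−1.50, SE 0.07, adjusted p = 8.17e-05). Gstt3 read 13.03, 12.97 and 12.95 against 14.16, 14.07 and 14.09 (−1.12, SE 0.08, adjusted p = 0.000319). Sult2b1 read 10.05, 9.89 and 10.02 in HFrD-INS livers against 8.17, 8.03 and 8.07 in chow-INS livers (1.90, SE 0.15, adjusted p = 0.000572). In each of these genes the HFrD-INS and chow-INS arrays were apart. The counts were 2 and 7 with centring. Of the other calls, those of Gstm1, Gstm4, Gstm5, Gstm6, Gsto1 and Gsto2 were lost on leaving out any single chow-INS array, and each also without 1 or more of the HFrD-INS arrays.

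The changes of the Ugt2 genes with NDGA were smaller in the INS groups. Ugt2a3 read 10.54, 10.55 and 10.11 in HFrD-NDGA-INS livers against 10.37, 10.46 and 10.31 in HFrD-INS livers, arrays that overlapped (0.02, SE 0.12), and the NDGA effect with INS minus that without was 2.64 (SE 0.16, adjusted p = 7.09e-07). Ugt2b read 8.63, 8.65 and 8.52 against 9.54, 9.36 and 9.66 and was detected on all of these arrays, which did not overlap. Its change of −0.92 (SE 0.08, adjusted p = 0.00062) passed the test, and the difference of effects did too (adjusted p = 2.97e-05). Ugt2b1 was lower by −0.44 (SE 0.07, adjusted p = 0.00928, lost without scaling), with a difference of effects of 0.91 (SE 0.13, adjusted p = 0.000759).

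Of the GST genes, Gsta5 read 10.67, 10.64 and 10.79 in HFrD-NDGA-INS livers against 9.61, 9.56 and 9.74 in HFrD-INS livers (1.06, SE 0.08, adjusted p = 0.000349). That is a smaller rise than without INS, with a difference of −1.56 (SE 0.15, adjusted p = 3.25e-05). Gstm7 rose more (0.95, SE 0.05, adjusted p = 0.000108; difference 0.33, SE 0.08, adjusted p = 0.0111). Gstm3 read 6.95, 7.0 and 6.97 in HFrD-NDGA-INS livers, 7.95, 7.88 and 8.14 in HFrD-INS livers and 9.10, 9.19 and 9.23 in chow-INS livers. It stepped down with each diet, whereas without INS the HFrD and chow arrays overlapped, and the HFrD effect differed between the sets by −1.15 (SE 0.13, adjusted p = 0.000192). Sult1c2 read 8.65, 8.92 and 8.55 in HFrD-NDGA-INS livers, 6.62, 6.85 and 7.15 in HFrD-INS livers and 9.33, 9.20 and 9.19 in chow-INS livers. Its changes of 1.83 with NDGA (SE 0.15, adjusted p = 0.000578) and −2.36 on HFrD-INS (SE 0.15, adjusted p = 0.000261) were both larger than without INS, by 0.86 and −1.63 (adjusted p of the differences 0.00419 and 8.81e-05).

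Over the families, 8 members were higher and 6 lower in HFrD-NDGA-INS than in HFrD-INS livers, where 6.31% and 8.44% of all entries were. The counts were 4 and 7 with centring and 9 and 3 without scaling, and Gstm4 and Gstt2 changed sign with centring. The HFrD effect differed with INS for 5 members (5.24% of all entries) and the NDGA effect for 12 (15.3% of all entries). Comparing INS with no INS on the same diet, 5 members differed on chow (12.4% of all entries), 6 on HFrD (4.3%) and 15 on HFrD-NDGA (20.4%). With centring these counts were 18, 1 and 16, and without scaling 2, 3 and 17. Ugt2a3 (2.35, SE 0.12, adjusted p = 6e-08) and Ugt2b, at least 4.51-fold higher, led the last of these, Gstm3 was lower with INS on both HFrD (−1.07, SE 0.09) and HFrD-NDGA (−1.31, SE 0.09), and Sult1c2 was higher with INS on chow (1.32, SE 0.11, adjusted p = 2.89e-05). Gsta5 fell with INS on HFrD-NDGA (−0.97, SE 0.10, adjusted p = 5.01e-05).

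**Figure D2:**
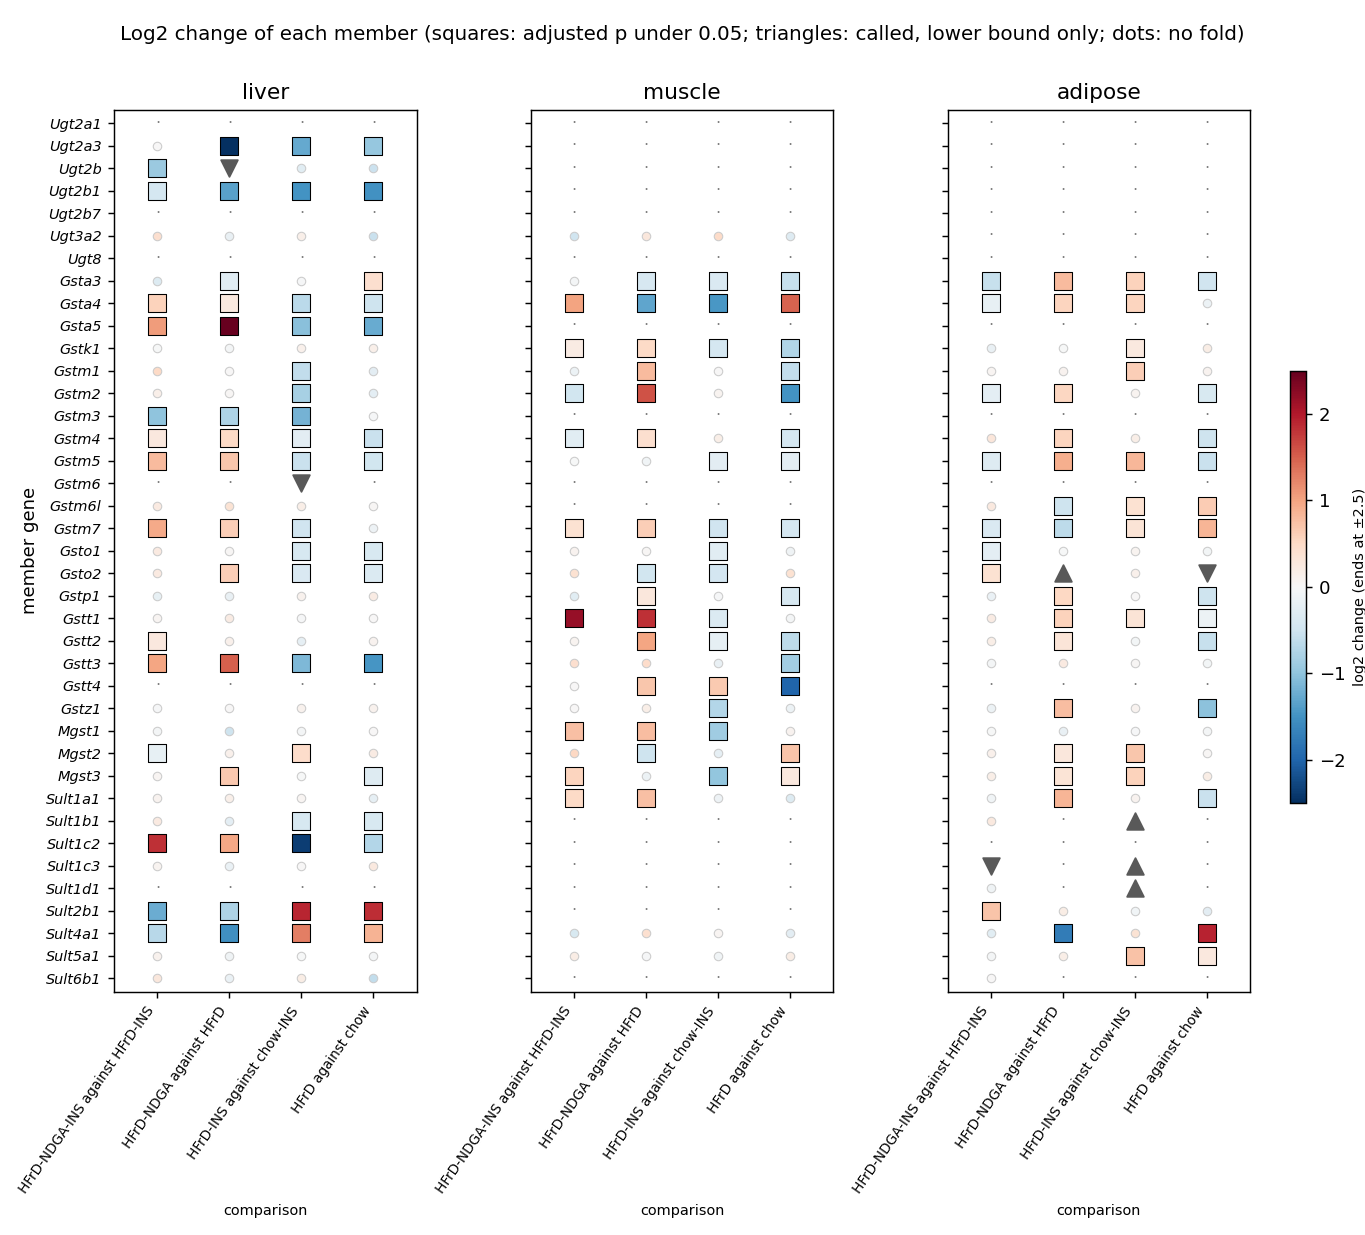
Log2 change of each of the 39 member genes (rows) in 4 diet comparisons (columns) in liver, muscle and adipose tissue, from red (higher in the first-named group) to blue (lower). Large squares passed an adjusted p of 0.05, small circles did not, triangles point the way of called genes whose fold is only a lower bound, and grey dots mark genes with no fold. The HFrD against chow columns of liver hold 12 blue squares without INS.

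Genes that supply, regulate and clear conjugation in liver were read from lists of the pathway. With NDGA against HFrD in liver, 8.26% of all entries were higher and 6.97% lower. The list of regulators has 10 genes, among them Por, an enzyme that passes electrons to P450 enzymes and is not a regulator. Of the 10, 4 were called higher with NDGA than on HFrD by limma: Nr1i3 (1.96, SE 0.10, adjusted p = 5.16e-05), Por (1.09, SE 0.10, adjusted p = 0.000829), Ppara (0.83, SE 0.16, adjusted p = 0.0174) and Hnf4a (0.45, SE 0.08, adjusted p = 0.0117). Nfe2l2 (−0.22, SE 0.11, adjusted p = 0.242), Ahr (−0.27, SE 0.18, adjusted p = 0.384) and Nr1i2 (0.05, SE 0.07, adjusted p = 0.682) did not pass the test. Nr1i3 was also higher with NDGA in the INS groups (1.95, SE 0.04, adjusted p = 2.18e-06) and lower on HFrD than on chow (−0.76, SE 0.10, adjusted p = 0.0042).

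The liver counts of the other lists also stand beside 8.26% of all entries higher and 6.97% lower with NDGA. Of 6 measured exporters of conjugates, 3 were higher and 1 lower with NDGA in liver: Abcc3, which carries glucuronides into blood (1.37, SE 0.08, adjusted p = 9.32e-05), and Abcc4 (0.97, SE 0.11, adjusted p = 0.00177) were among the higher ones and Abcc2, the canalicular exporter into bile (−0.34, SE 0.05, adjusted p = 0.00561), was the lower one. Of 4 genes of UDP-glucuronic acid supply, 2 were higher and 1 lower, with Ugdh, which makes UDP-glucuronic acid (0.76, SE 0.07, adjusted p = 0.000756), higher while the Ugt2 genes were lower. Of 12 genes of glutathione supply and recycling, 3 were higher and 1 lower, with Gss (0.77, SE 0.08, adjusted p = 0.00146) and Gclc (0.40, SE 0.06, adjusted p = 0.00787), which build glutathione, among the higher ones. Of 6 genes of PAPS supply 1 was called higher in liver, of 4 genes that remove conjugates 2 were called lower, and of 10 other transferases and detoxifying enzymes 2 were higher and 4 lower. In adipose tissue 5 of the 6 genes of PAPS supply were lower on HFrD than on chow, where 35.3% of all entries were lower, and 5 were higher with NDGA than on HFrD, where 32.5% were higher.

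In muscle, Gsta4, Gstt4 and Gstm2 changed most on HFrD. Gsta4 read 7.70, 7.26 and 7.42 in HFrD-NDGA muscle, 8.81, 8.75 and 8.79 in HFrD muscle and 7.23, 7.39 and 7.32 in chow muscle. Only the HFrD arrays stood apart, at 2.77-fold over chow (1.47, SE 0.11, adjusted p = 0.000104), and the change with NDGA against HFrD was −1.32 (SE 0.11, adjusted p = 0.000176). Gstt4, a theta-class gene, read 6.68, 6.61 and 6.74 in HFrD-NDGA muscle, 6.07, 5.89 and 6.0 in HFrD muscle and 8.0, 8.0 and 7.98 in chow muscle. It was 4.01-fold lower on HFrD than on chow (−2.00, SE 0.05, adjusted p = 1.32e-06), and its rise with NDGA (0.69, SE 0.05, adjusted p = 0.00011) was lost when its 2 probes were averaged. Its probe was detected on only 1 of the 3 HFrD arrays, so both changes are against a group near background. Gstm2 read 11.37, 11.32 and 11.20 in HFrD-NDGA muscle, 9.80, 9.62 and 9.68 in HFrD muscle and 11.20, 11.23 and 11.16 in chow muscle. It was 2.81-fold lower on HFrD than on chow (−1.49, SE 0.06, adjusted p = 8.47e-06) and was 3.03-fold higher with NDGA than on HFrD (1.60, SE 0.06, adjusted p = 7.14e-06).

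Gstt1, the theta-class enzyme that conjugates small halogenated compounds, did not differ between HFrD and chow beyond the spread and was higher with NDGA. It read 9.85, 10.06 and 9.71 in HFrD-NDGA muscle, 8.14, 7.98 and 8.04 in HFrD muscle and 8.07, 8.17 and 8.08 in chow muscle, 3.53-fold higher with NDGA than on HFrD (1.82, SE 0.09, adjusted p = 2.34e-05). Mgst1 read 11.20, 11.35 and 11.26 in HFrD-NDGA muscle against 10.53, 10.51 and 10.47 in HFrD muscle and 10.40, 10.44 and 10.39 in chow muscle (0.77 against HFrD, SE 0.04, adjusted p = 2.52e-05). The NDGA arrays of both genes lay above all others. Gsta3 fell on HFrD against chow (−0.58, SE 0.02, adjusted p = 5.42e-06, lost without scaling) and fell again with NDGA (−0.41, SE 0.02, adjusted p = 2.55e-05).

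Across the families in muscle, 4 members were called higher and 13 were called lower on HFrD against chow (16.9% and 18.7% of all entries), and 14 were higher and 5 lower with NDGA than on HFrD (17.4% and 16.6% of all entries). Without scaling the counts were 6 and 9, and 8 and 6. Of these calls, 3 and 4 concern genes at background with no fold. In the first comparison 10 of the 14 called members detected in either group kept their call in every alternative, and 9 of 15 in the second. Among mu-class genes 5 of 8 were lower on HFrD and 4 of 8 higher with NDGA. Against chow, 8 members differed in HFrD-NDGA muscle (5.87% of all entries), with Gstt4 and Gsta3 lower and Gstt1 and Mgst1 higher in every alternative.

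Markers of other cell types moved between the muscle pools as well. Stellate cell and fibroblast markers averaged 11.41 to 11.51 per array in HFrD-NDGA muscle, 13.12 to 13.18 in HFrD muscle and 11.46 to 11.50 in chow muscle, and 7 of 7 were called higher on HFrD and 7 of 7 lower with NDGA. Macrophage markers averaged 8.10 to 8.20, 9.24 to 9.37 and 7.64 to 7.78 in the same order, with 6 of 7 called in each comparison and Cd163 undetected in each group. Adipocyte markers were also called on HFrD against chow, 6 of 9 higher and 1 lower, as were 2 of 2 erythrocyte markers, both higher. Hepatocyte markers ran the other way, at 9.63 to 9.74 in HFrD-NDGA muscle, 7.44 to 7.54 in HFrD muscle and 9.14 to 9.23 in chow muscle, with 9 of 10 called lower on HFrD and 9 of 10 higher with NDGA. Of these, Alb averaged 14.13 in HFrD-NDGA muscle, 10.65 in HFrD muscle and 13.12 in chow muscle. The part of these markers in the changes of Gsta4, Gstm2, Gstt1 and the other members was not tested.

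In the INS pools of muscle, Gsta4 moved the opposite way. It read 8.12, 7.97 and 7.93 in HFrD-NDGA-INS muscle, 6.95, 7.06 and 6.97 in HFrD-INS muscle and 8.49, 8.45 and 8.42 in chow-INS muscle. The HFrD-INS arrays were the lowest, where the HFrD arrays were the highest without INS: Gsta4 fell by 1.46 on HFrD-INS (SE 0.06, adjusted p = 2.16e-05) and rose by 1.01 with NDGA (SE 0.06, adjusted p = 0.000149). Gstt1 kept its direction with NDGA, at 9.52, 9.88 and 9.76 in HFrD-NDGA-INS muscle against 7.51, 7.69 and 7.46 in HFrD-INS muscle and 7.86, 7.92 and 7.97 in chow-INS muscle (2.17 against HFrD-INS, SE 0.10, adjusted p = 8.35e-05). Mgst1 did too, at 10.09, 10.16 and 10.08 in HFrD-NDGA-INS muscle against 9.29, 9.41 and 9.37 in HFrD-INS muscle (0.75, SE 0.04, adjusted p = 8.35e-05). Hepatocyte markers were not higher with NDGA in these pools, averaging 7.51 to 7.66 in HFrD-NDGA-INS muscle and 8.07 to 8.11 in HFrD-INS muscle, with 4 of 10 called lower. Stellate cell and fibroblast markers averaged 11.91 to 12.03 in HFrD-NDGA-INS, 11.32 to 11.42 in HFrD-INS and 11.95 to 12.03 in chow-INS muscle, with 6 of 7 called lower on HFrD-INS and 6 of 7 higher with NDGA. Adipocyte markers averaged 9.54 to 9.66, 8.88 to 8.99 and 9.39 to 9.43 in the same order, with 5 of 9 called lower and 1 higher on HFrD-INS and 6 of 9 higher with NDGA. As with Gsta4, the HFrD-INS arrays were the lowest in both lists, and the part of these markers in its changes was not tested.

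On HFrD-INS against chow-INS, 1 member was higher and 12 were lower (11.3% and 11% of all entries), and 1 and 4 without scaling. Gsta4, Mgst3 (−0.98, SE 0.07, adjusted p = 0.000277), Mgst1 (−0.88, SE 0.04, adjusted p = 2.66e-05) and Gstz1 (−0.73, SE 0.04, adjusted p = 0.000102) were lower in every alternative. With NDGA in the INS pools 8 members were higher and 2 lower (8.93% and 5.6% of all entries), and 5, all higher, with centring. Beyond Gsta4, Gstt1 and Mgst1, Mgst3 rose by 0.56 (SE 0.07, adjusted p = 0.00426). The HFrD effect differed with INS for 17 members, beside 40.3% of all entries, and the NDGA effect for 16, beside 36.6%. Between INS and no INS, 11 members differed on chow (22% of all entries), 18 on HFrD (41.4%) and 14 on HFrD-NDGA (16.2%), or 8, 11 and 9 without scaling.

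**Figure D3:**
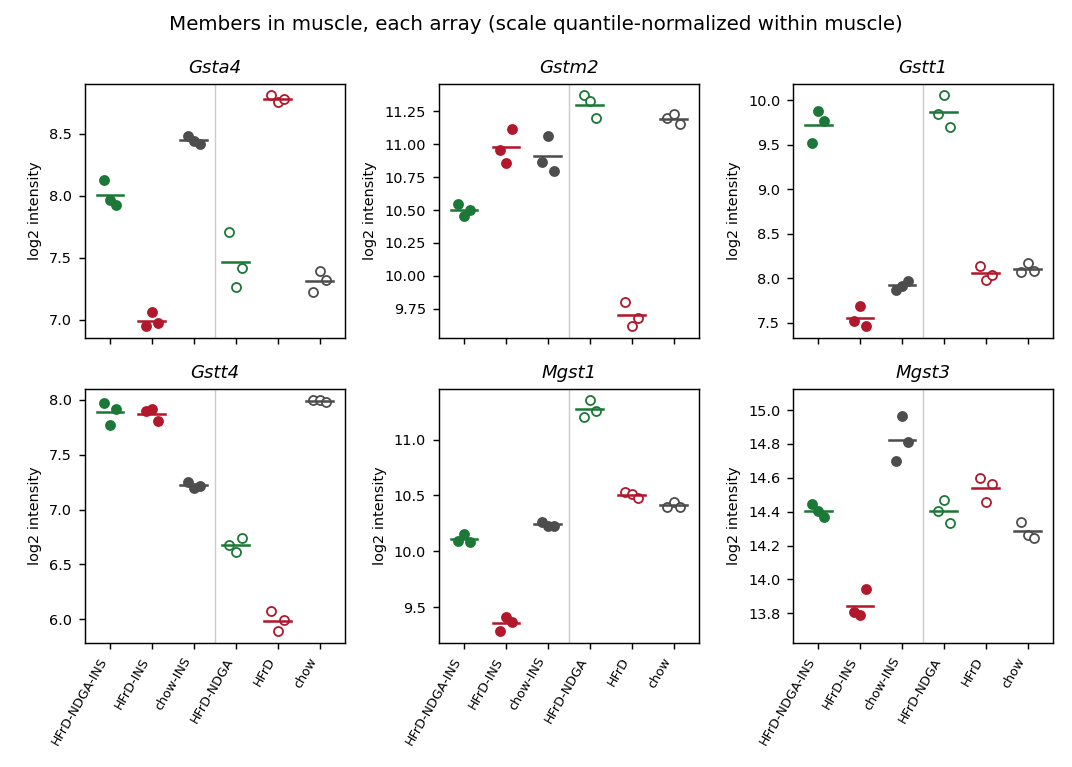
Log2 intensity of 6 member genes on each muscle array (points; bars are group means of 3 arrays), for the INS groups (filled) and the groups without INS (open), HFrD-NDGA, HFrD and chow from left to right in each. Gstt1 was higher in both NDGA groups than in all other groups, and Gsta4 was highest on HFrD without INS and lowest on HFrD-INS.

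In adipose tissue Gstz1, Gstm5 and Sult1a1 were lower on HFrD than on chow and higher with NDGA than on HFrD. Gstz1 read 13.29, 13.16 and 13.31 in HFrD-NDGA adipose tissue, 12.50, 12.47 and 12.50 in HFrD adipose tissue and 13.52, 13.55 and 13.48 in chow adipose tissue. The HFrD arrays were the lowest, 2.04-fold under chow (−1.03, SE 0.04, adjusted p = 4.94e-06), and the gene was 1.7-fold higher with NDGA than on HFrD (0.77, SE 0.04, adjusted p = 1.97e-05). Gstm5 read 11.17, 11.06 and 11.12 in HFrD-NDGA adipose tissue, 10.14, 10.21 and 10.29 in HFrD adipose tissue and 10.80, 10.75 and 10.77 in chow adipose tissue (0.90 with NDGA against HFrD, SE 0.04, adjusted p = 1.34e-05; −0.56 on HFrD against chow, SE 0.04, adjusted p = 8.33e-05). Sult1a1 followed the same order, at 13.76, 13.76 and 13.65 with NDGA, 12.85, 12.81 and 12.95 on HFrD and 13.43, 13.45 and 13.38 on chow (0.86 with NDGA, SE 0.05, adjusted p = 2.06e-05; −0.55 on HFrD, SE 0.05, adjusted p = 0.000112). In both genes the arrays of the 3 diets did not overlap.

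Sult4a1 went the other way. It read 7.80, 8.61 and 8.16 in HFrD-NDGA adipose tissue, 9.72, 9.85 and 10.23 in HFrD adipose tissue and 7.65, 8.16 and 8.23 in chow adipose tissue. Only the HFrD arrays were high, 3.78-fold over chow (1.92, SE 0.26, adjusted p = 0.000902), with a change of −1.74 with NDGA against HFrD (SE 0.26, adjusted p = 0.0015). Gstm7 also rose on HFrD (0.84, SE 0.13, adjusted p = 0.0018, lost with centring) and fell with NDGA (−0.66, SE 0.13, adjusted p = 0.00588), so Gstm5 and Gstm7, which moved together with NDGA in liver, moved apart here.

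Over the families in adipose tissue, 7 members were called higher and 13 were called lower on HFrD against chow, beside 15.9% and 35.3% of all entries, and 16 were higher and 6 lower with NDGA than on HFrD, beside 32.5% and 15.6%. In each comparison 6 called members were without a fold. The medians of the members, −0.04 and 0.23, stood beside −0.11 and 0.10 over all entries. With centring the first pair of counts was 4 and 20, the median over all entries on HFrD was −0.33, and Sult5a1 changed sign. Against chow, 8 members were higher and 2 lower in HFrD-NDGA adipose tissue, where 20.3% of all entries differed, the largest change being that of Mgst3 (0.53, SE 0.07, adjusted p = 0.00263), and none of these calls was kept in every alternative. The split was 1 higher and 2 lower with centring and 12 members, all higher, without scaling.

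The adipose pools differed in other tissues' markers. Skeletal muscle fibre markers averaged 6.93 to 7.14 per array in HFrD-NDGA, 8.17 to 8.32 in HFrD and 11.25 to 11.30 in chow adipose tissue, with 10 of 10 called lower on HFrD than on chow. Epididymis and seminal vesicle markers averaged 6.74 to 6.78, 9.55 to 9.60 and 5.31 to 5.41 in the same order. On HFrD 5 of 9 were called higher and 1 lower, and with NDGA 5 of 9 lower. Undetected were 4 of 9 on HFrD and 6 of 9 on chow. The list mean hides a split between its genes. Svs4, Svs5, Svs6 and Pate4 averaged 15.68, 14.78, 14.64 and 13.07 in HFrD adipose tissue. In chow adipose tissue they averaged 5.39, 6.26, 4 and 6.24. Lcn5 averaged 8.91 on HFrD and 6.91 on chow, while Crisp1, Adam7, Defb1 and Spink2 were undetected in both. Erythrocyte markers averaged 10.23 to 10.37 in HFrD-NDGA, 13.85 to 13.98 in HFrD and 9.86 to 10 in chow adipose tissue, with 2 of 2 called higher on HFrD and lower with NDGA. On HFrD against chow, 4 of 4 bile duct markers were called higher, 4 of 7 macrophage markers higher and 1 lower, 1 of 5 endothelium markers higher and 4 lower, and 1 of 7 stellate cell and fibroblast markers higher and 4 lower. The mean of the adipocyte markers varied less, at 15.54 to 15.56, 15.60 to 15.64 and 15.61 to 15.63. Several of them lay at the top of the intensity range, where changes may read too small. Cidec averaged 15.98, 15.99 and 16 in the same order, and Pck1 15.99 in each. Single genes of the list did move: Lep averaged 14.93, 15.12 and 15.47 and Fabp4 15.67, 15.93 and 15.67. The part of these markers in the changes of Gstz1, Gstm5, Sult1a1 and Sult4a1 was not tested.

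Among the INS pools of adipose tissue, Sult1c3, Sult1b1 and Sult1d1 were higher on HFrD-INS than on chow-INS. Sult1c3 read 6.78, 6.72 and 6.33 in HFrD-INS adipose tissue and lay at the floor of 4.0 on all 15 other adipose arrays. It was at least 1.26-fold higher than in chow-INS adipose tissue (adjusted p = 1.15e-05) and at least 1.3-fold lower in HFrD-NDGA-INS than in HFrD-INS adipose tissue (adjusted p = 3.39e-05), bounds set by the dimmest detected probes of the arrays. Hepatocyte markers averaged 6.71 to 6.74 in HFrD-NDGA-INS, 9.56 to 9.61 in HFrD-INS and 7.09 to 7.14 in chow-INS adipose tissue, with 9 of 10 called higher on HFrD-INS against chow-INS, 9 of 10 lower with NDGA, and none of the 10 undetected on HFrD-INS. Skeletal muscle fibre markers averaged 7.19 to 7.30 in HFrD-INS and 8.38 to 8.52 in chow-INS adipose tissue, with 10 of 10 called lower. The part of these markers in the signal of Sult1c3 was not tested. Sult1b1, another sulfotransferase of liver, read 7.01, 6.53 and 6.66 in HFrD-NDGA-INS, 6.77, 6.39 and 6.27 in HFrD-INS and 4.62, 5.07 and 4.90 in chow-INS adipose tissue. Its chow-INS arrays were lowest and the others overlapped, and it was at least 1.15-fold higher on HFrD-INS than on chow-INS (adjusted p = 0.00138, lost with a floor of 64). Sult1d1, which sulfates catecholamines in rodents and was not detected in liver, read 7.28, 6.82 and 6.84 in HFrD-NDGA-INS, 7.30, 7.10 and 6.82 in HFrD-INS and 5.55, 5.82 and 5.36 in chow-INS adipose tissue. Here too the chow-INS arrays lay below the overlapping others, and the gene was at least 1.74-fold higher on HFrD-INS than on chow-INS (adjusted p = 0.00185).

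Gsta3 and Gstm5 changed direction between the sets. Gsta3 read 8.12, 7.96 and 7.98 in HFrD-NDGA-INS, 8.6, 8.64 and 8.57 in HFrD-INS and 8.01, 8.13 and 7.94 in chow-INS adipose tissue, so HFrD-INS was highest, whereas without INS it read 8.30, 8.42 and 8.59 with NDGA, 7.77, 7.63 and 7.56 on HFrD and 8.24, 8.11 and 8.08 on chow, and HFrD was lowest. Gstm5 read 11.19, 11.27 and 11.16 in HFrD-NDGA-INS, 11.53, 11.56 and 11.51 in HFrD-INS and 10.75, 10.64 and 10.73 in chow-INS adipose tissue. It rose by 0.83 on HFrD-INS (SE 0.04, adjusted p = 1.92e-05) and fell by 0.33 with NDGA (SE 0.04, adjusted p = 0.00211, lost with centring). Sult2b1 rose with NDGA in the INS pools (0.71, SE 0.11, adjusted p = 0.00555).

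In these pools 14 members were higher and 0 lower on HFrD-INS than on chow-INS by limma at the adjusted threshold, beside 11% and 10.9% of all entries, and 16 passed an unadjusted p of 0.05 in either direction. With centring 8 were called, all of them higher. Of the single calls, those of Gstk1, Gstm6l and Gstm7 were lost on leaving out 1 HFrD-INS or chow-INS array. With NDGA 2 were higher and 8 lower, beside 14.3% and 8.77% of all entries, with 2 and 3 under centring and 4 and 4 without scaling. The HFrD effect differed with INS for 22 members and the NDGA effect for 17, beside 43.5% and 37.1% of all entries. Between INS and no INS, 13 members differed on chow (22.2% of all entries), 24 on HFrD (46.7%) and 8 on HFrD-NDGA (8.23%), or 14, 21 and 3 with centring and 8, 29 and 6 without scaling.

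**Figure D4:**
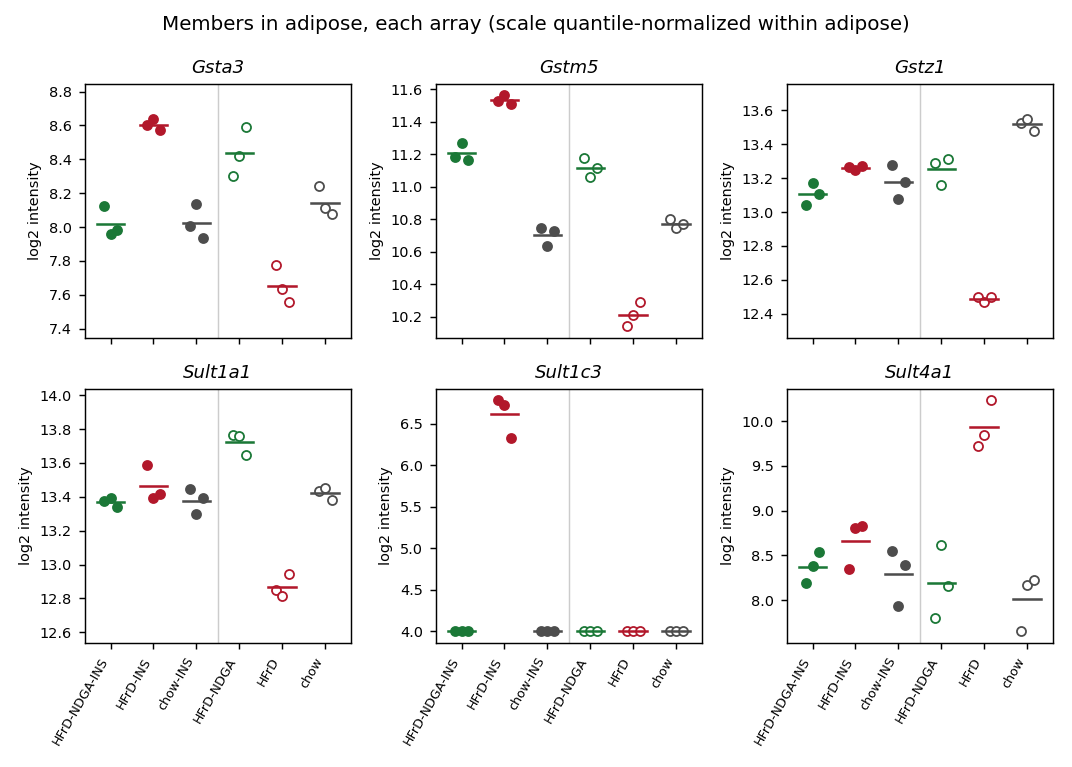
Log2 intensity of 6 member genes on each adipose array (points; bars are group means of 3 arrays), for the INS groups (filled) and the groups without INS (open), HFrD-NDGA, HFrD and chow from left to right in each. Sult1c3 was above the floor of 4.0 only on the 3 HFrD-INS arrays, and Gstz1 was lowest and Sult4a1 highest on HFrD.

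**Figure D5:**
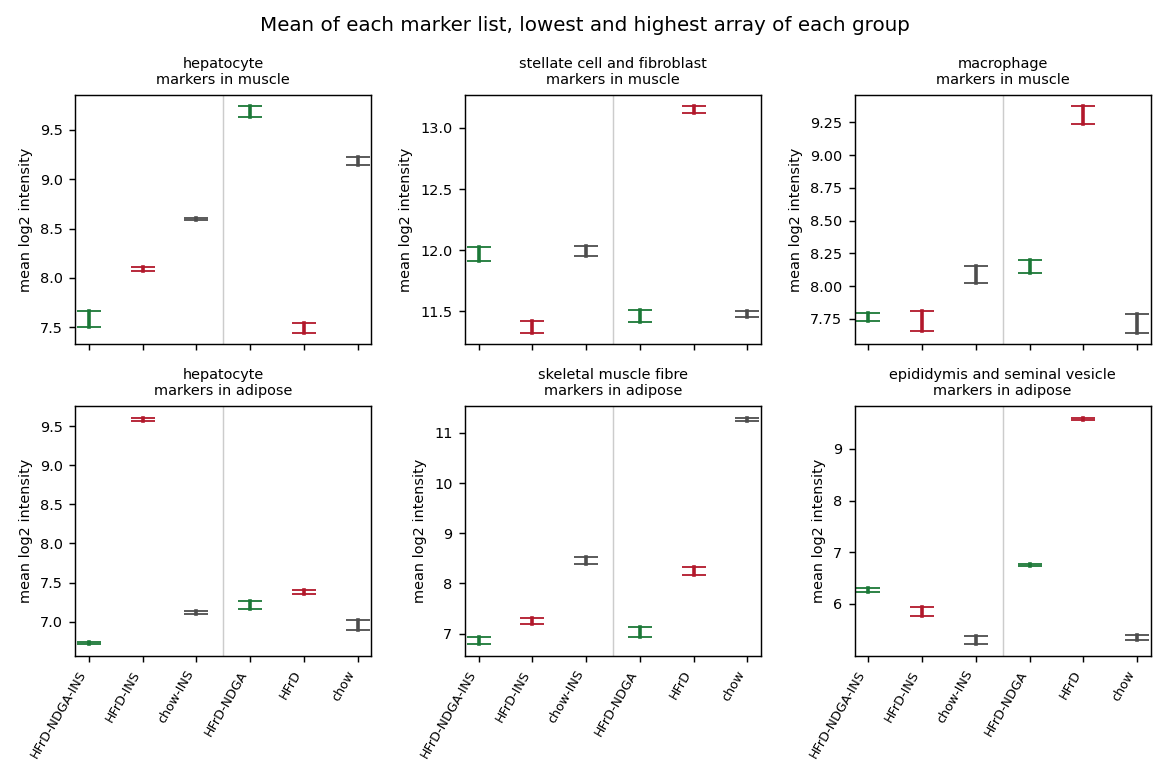
Mean log2 intensity of marker lists in muscle (upper row) and adipose tissue (lower row), drawn for each group from its lowest to its highest array, HFrD-NDGA, HFrD and chow from left to right with INS and then without. Hepatocyte markers in adipose tissue peaked in HFrD-INS at 9.56 to 9.61, and skeletal muscle fibre markers in adipose tissue at 11.25 to 11.30 on chow.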

How the data were processed

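Total RNA of the rats of a group was pooled by the authors in equal amount and hybridized, with Cy5 label, to 3 repeat Rat OneArray v1 arrays per group. The authors deposited intensity values, some of them below 0, for 24358 probes on 54 arrays, together with a detection p-value per spot. The deposited intensity table is named as normalized, but array medians differed between arrays, so no scaling between arrays was taken as given. Per the methods, the authors' own analysis used Partek Genomics Suite with a normalization step, log2 values and analysis of variance.

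Here the intensities were quantile normalized over the 18 arrays of a tissue, raised to a floor of 16 and put on the log2 scale, and 1 probe per symbol, the brightest on average, was kept (19802 entries, including symbols joined together; 1913 probes without a symbol were left out). Tests used limma 3.58.1 in R 4.3.3 (lmFit and eBayes, two-sided, Benjamini-Hochberg over all entries). Diet comparisons were fitted on the 9 arrays with INS or the 9 without, INS comparisons and differences of effects on the 18 arrays of a tissue, and tissue pairs on the 9 chow arrays after quantile normalization of all 54. A probe was detected at a detection p under 0.05. Where the dimmer group was not detected, the fold is a lower bound against the dimmest detected probe of its arrays, and there is none where the brighter group was not detected or the bound is under 1. The fit was also run on simulated arrays with independent scatter, its size taken from the repeat arrays. Such arrays cannot test the effects of pooling, of scaling between arrays or of the floor.

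The plan was to name called members above background in order of change, up to 12 in each direction, and members that account for a subfamily. Not all of these are named, so a member without values may still have been called. On HFrD against chow, Gstp1, Gstm2, Gstm4, Gstt2, Gsto2 and Gstm6l in adipose tissue were called in every alternative and enter only the counts. The same holds for Gstk1, Gstm1, Gstm4, Gstm7, Gstt2, Gstt3 and Mgst2 in muscle. The rule on gene names uses no measured value, but the families it names, the pathway and marker lists and the tests were chosen with earlier results of these data known. Alternatives were centring on the median, no scaling, quantile normalization over 9 arrays, a floor of 64, a filter on dim probes, the mean of a gene's probes, 6 groups sharing the spread, no moderation, and leaving out each array. Promoters came from RefSeq (GRCr8). The values of 1 gene of the pathway lists are not reported here. Probe sequences were not used, and cross-hybridization between similar members was not tested.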

Additional observations from a re-analysis of the deposited data

Results flagged for a closer look

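Some members were called in opposite directions in the groups with INS and in those without, with a difference of the effects that passed limma's test over all entries. In muscle, on HFrD against chow, the effect with INS minus that without was −2.93 for Gsta4 (SE 0.12, adjusted p = 8.67e-10; −1.46 with INS and 1.47 without), 2.66 for Gstt4 (SE 0.08, adjusted p = 2.48e-11; 0.65 and −2.00) and −1.23 for Mgst3 (SE 0.09, adjusted p = 1.55e-07; −0.98 and 0.26). The probe of Gstt4 was detected on only 1 of the 3 HFrD arrays without INS. With NDGA against HFrD in muscle the difference was 2.34 for Gsta4 (adjusted p = 1.04e-08; 1.01 and −1.32), −2.07 for Gstm2 (adjusted p = 8.86e-09; −0.48 and 1.60) and −0.70 for Gstm4 (adjusted p = 3.39e-05; −0.29 and 0.41). Only Gsta4 kept the calls of both sets in every alternative, in either comparison. The calls of Gstt4 and Gstm2 with INS, of Mgst3 without INS and of Gstm4 in both sets were each lost in some alternative.

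In adipose tissue, on HFrD against chow, the difference was 1.07 for Gsta3 (adjusted p = 6.71e-06; 0.58 with INS and −0.49 without), 1.39 for Gstm5 (adjusted p = 1.58e-09; 0.83 and −0.56) and 0.49 for Gstt1 (adjusted p = 0.000199; 0.35 and −0.15). It was 3.26 for Sult1b1 (adjusted p = 1.51e-06) and 3.06 for Sult1d1 (adjusted p = 1.89e-05), and both values depend on the floor. Sult1b1 was detected on none of the HFrD, chow and chow-INS arrays, so its change without INS lies at background and has no fold. Sult1d1 was not detected on HFrD or chow-INS. With NDGA against HFrD in adipose tissue the difference was −1.37 for Gsta3 (adjusted p = 9.29e-07; −0.58 and 0.78), −0.78 for Gsta4 (adjusted p = 2e-05; −0.21 and 0.56), −0.78 for Gstm2 (adjusted p = 1.04e-05; −0.24 and 0.54) and −1.23 for Gstm5 (adjusted p = 6.69e-09; −0.33 and 0.90). The calls of both sets were kept in every alternative only for Gstm5 on HFrD against chow and Gsta3 with NDGA. Each of the others in adipose tissue lost a call in some alternative. That of Gsta4 with INS changed sign with centring (0.026).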

How the results depend on the processing

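Of 450 alternative counts of called members over 33 results, 403 lay within 1.5 times the reported count and 47 did not. Over 305 called changes of members, 3512 of 4058 alternatives kept the call, 527 lost it and 19 changed its sign.

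With arrays centred on their medians, the members called in liver numbered 8 on HFrD against chow (17 reported), 9 on HFrD-INS against chow-INS (19), 18 for INS on chow (5) and 1 for INS on HFrD (6), and the liver HFrD effect differed with INS for 2 (5). In muscle they numbered 5 for HFrD-NDGA against chow (8), 6 for HFrD-INS against chow-INS (13) and 5 for HFrD-NDGA-INS against HFrD-INS (10). In adipose tissue they numbered 3 for HFrD-NDGA against chow (10), 8 for HFrD-INS against chow-INS (14), 5 for HFrD-NDGA-INS against HFrD-INS (10) and 3 for INS on HFrD-NDGA (8). Without scaling they were 2 for INS on chow, 3 for INS on HFrD and 2 for the difference of HFrD effects in liver, 5 for HFrD-NDGA against chow, 5 for HFrD-INS against chow-INS, 5 for HFrD-NDGA-INS against HFrD-INS, 11 for INS on HFrD (18) and 9 for INS on HFrD-NDGA (14) in muscle, and 8 for INS on chow (13) in adipose tissue. The cause was not tested.

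Leaving out single arrays gave 11 to 16 members for HFrD against chow, 2 to 5 for INS on chow, 3 to 5 for INS on HFrD and 3 to 5 for the difference of HFrD effects in liver, 5 to 7 for HFrD-NDGA against chow and 6 to 10 for HFrD-NDGA-INS against HFrD-INS in muscle, and 5 to 12 for HFrD-NDGA-INS against HFrD-INS and 5 to 8 for INS on HFrD-NDGA in adipose tissue. The lowest counts came without HFrD array 1 for liver HFrD against chow, HFrD-INS array 2 for adipose HFrD-NDGA-INS against HFrD-INS and HFrD-NDGA-INS array 1 for INS on HFrD-NDGA in adipose tissue, and without any of several arrays elsewhere.

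Signs changed with centring for Gsto1 (0.035), Mgst3 (0.11) and Sult1b1 (0.055) on HFrD against chow, Gsta4 (0.31) and Gsto1 (0.18) for HFrD-NDGA against chow, Gstm4 (−0.11) and Gstt2 (−0.12) for HFrD-NDGA-INS against HFrD-INS, Mgst1 (−0.15) and Sult1b1 (−0.032) for INS on HFrD-NDGA, and Gstm4 (0.32) and Gstt3 (0.21) for INS on chow, all in liver. They also changed for Gsto1 (−0.076) for INS on chow in muscle, and for Sult5a1 (−0.12) on HFrD against chow, Gstm1 (−0.044) for HFrD-NDGA against chow and Gsta4 (0.026) for HFrD-NDGA-INS against HFrD-INS in adipose tissue. Without scaling they changed for Sult1c2 (−0.033, HFrD-NDGA against chow) and Gsta3 (0.10, INS on HFrD-NDGA) in liver and for Gsta3 (−0.11, INS on HFrD) and Gsto1 (−0.052, INS on chow) in muscle. The cause was not tested. The median over all entries moved furthest in adipose tissue, to −0.33 on HFrD against chow and 0.27 with NDGA against HFrD with centring and to 0.37 for INS on HFrD without scaling, and in liver to 0.32 for INS on HFrD-NDGA without scaling. Genes at background carry bounds or no fold, and the signal over background limits them.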
